A study of Mus musculus with 10 samples.

Results

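Organic anion and cation transporters are the carriers by which the kidney moves drugs, toxins, urate, carnitine and conjugated hormones between blood and urine. They were taken as all rows of the authors' tables whose name starts with Slc22a, Slco or Slc47a followed by a digit, which gave 43 of 30431 rows. RNA came from mouse kidneys, taken whole at postnatal day 21. The DM kidneys (3 libraries) had the genotype Pkhd1Cre; Pkd2 F/F; miR-21null, so that the floxed Pkd2 gene was deleted by Cre and the microRNA miR-21 was missing as well. The SM kidneys (3 libraries) had the genotype Pkhd1Cre; Pkd2 F/F, with Pkd2 deleted in the same way and miR-21 present. The WT kidneys (4 libraries) are given as wild-type, with no word on whether they carried a floxed allele. Pkd2 encodes polycystin-2, a cation channel whose loss in tubule cells gives cystic kidneys. Pkhd1Cre is a Cre driver known for activity in the collecting duct, while most of the transporters described here belong to the proximal tubule, a segment upstream of it. The comparisons ask how these transporters differ in cystic kidneys, and whether loss of miR-21 changes that.

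In the proximal tubule, carriers of the blood-side membrane take up organic anions in exchange for dicarboxylates and organic cations along the membrane potential, and carriers and pumps of the urine-side membrane release them. Uptake of anions is the task of the organic anion transporters (OATs) and of cations that of the organic cation transporters (OCTs). The OCTN proteins carry carnitine and ergothioneine, the organic anion transporting polypeptides (OATPs, Slco genes) carry bile acids, steroid conjugates, thyroid hormone and prostaglandins, and the multidrug and toxin extrusion proteins (MATEs) release cations in exchange for protons.

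The 3 tables hold comparisons rather than libraries, so the spread between animals is seen only through the test. Log2 fold changes and adjusted p-values are those of the authors' deposited tables, from the likelihood ratio test of edgeR, with the first-named group over the second. A gene was called where the adjusted p was below 0.05. The standard error (SE) beside a fold change was recovered from the test, as the size of the fold change over the root of its likelihood ratio, and an implied 95% interval is built from it. The 10 libraries were read as separate mice, so the p-values set each difference against the spread between animals estimated by the authors' fit. Levels in CPM, read counts scaled to a common library total, were solved for each group from the deposited average and fold changes. They are not divided by gene length. Without library totals, the depth behind each value is unknown. Of the 43 members, 28 had an average of at least 1 CPM, 15 were under it, and 4 of those stood at the lowest level of the tables.

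As a check of the labels, Pkd2 had a log2 fold change of -0.49 (SE 0.20, adjusted p = 0.0838) in DM versus WT and -0.41 (SE 0.20, adjusted p = 0.179) in SM versus WT, in the authors' deposited tables. These rows cover the whole gene in all cells of the kidney, and the row of the miR-21 gene, at the lowest level, checks nothing. Kidney markers were present in every group. Lrp2, the megalin of the proximal tubule, stood at 1016 CPM in DM, 902 CPM in SM and 1893 CPM in WT. Umod, of the thick ascending limb, stood at 2981, 2862 and 3553 CPM in the same order, and Aqp2, of the collecting duct, at 269, 231 and 280 CPM.

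Many of the transporters were lower in both mutant groups than in WT, among them OAT1, OAT3 and OCT2. For SM versus WT, 15 of 43 members were called lower and 2 higher in the authors' deposited table, with a median log2 fold change of -0.52 over all 43. Of all rows there, 6.09% were called lower and 7.87% higher, with a median of 0. For DM versus WT, 18 of 43 were called lower and 1 higher in the authors' deposited table, with a median of -0.50. Of all rows there, 5.92% were called lower and 7.55% higher, again with a median of 0. Rows averaging 1 CPM or more had larger shares, 9.47% lower and 12.2% higher in SM versus WT, and 8.53% lower and 11.3% higher in DM versus WT. Both comparisons use the same WT libraries. Of the members, 14 were called lower in both, 1 in SM versus WT only and 4 in DM versus WT only, and 22 were called in neither. The summed level of the 28 members with at least 1 CPM was 1856 CPM in DM, 1751 CPM in SM and 3527 CPM in WT. The 5 highest members made up 58.5% of the WT sum.

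**Figure D1:**
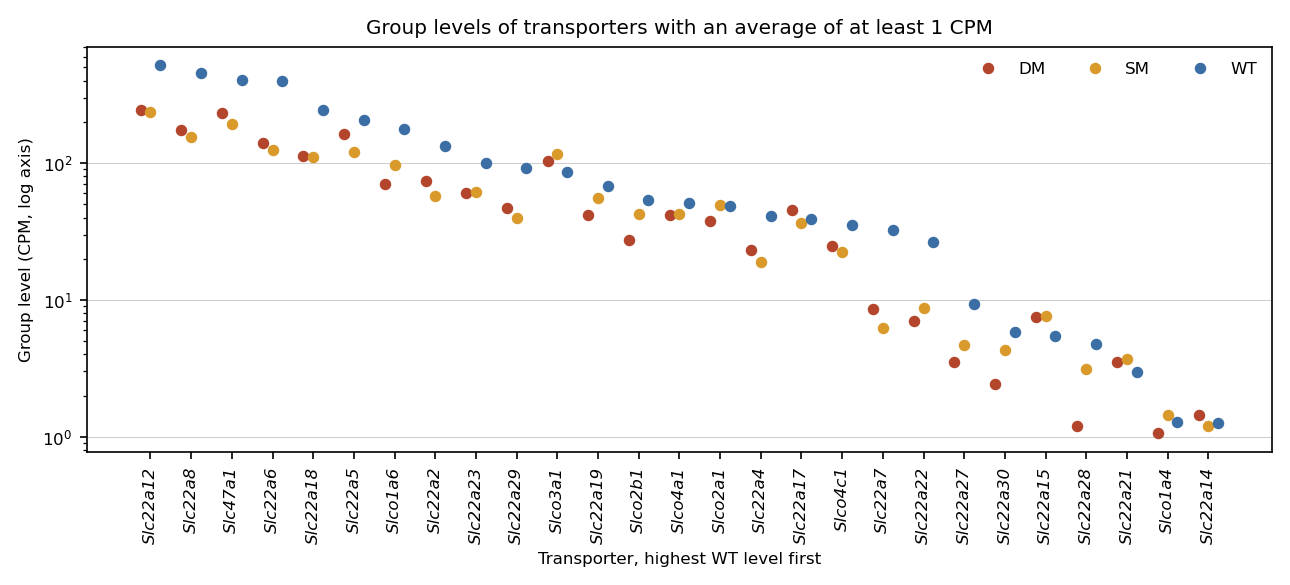
Group level in CPM (log axis) of transporters with an average of at least 1 CPM, for DM, SM and WT kidneys, in order of the WT level; each point is a group level solved from the deposited average and fold changes, with no error bar because the tables give no library values. Slc22a12 is highest, at 244 CPM in DM, 234 CPM in SM and 517 CPM in WT, and for the 7 highest members both mutant points lie below the WT point.

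These calls depend on how the spread is treated. With each likelihood ratio referred to an F distribution with 1 and 7 degrees of freedom, which allows for a spread estimated from 10 libraries, 4 members passed in SM versus WT (Slc22a2, Slc22a6, Slc22a8 and Slc22a18) and 2 in DM versus WT (Slc22a6 and Slco1a6). Of all rows, 682 (2.24%) and 451 (1.48%) then passed in the same order of comparisons. Whole kidney was measured, so fewer proximal tubule cells and less RNA per cell cannot be told apart.

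Markers of the proximal tubule outside the family moved in the same direction. Of 23 such markers, 15 were called lower in DM versus WT and 17 in SM versus WT in the authors' deposited tables, with 0 called higher in either, and their medians were -1.06 and -1.10. Their summed level was 19633 CPM in DM, 17791 CPM in SM and 40113 CPM in WT, all 23 being above 1 CPM. The 3 most abundant were Kap, an androgen-regulated kidney protein, Slc34a1, the phosphate carrier NaPi-IIa, and Pck1, an enzyme of gluconeogenesis. The authors' deposited table of SM versus WT gave Kap -1.32 (SE 0.52, not called), Slc34a1 -1.43 (SE 0.36) and Pck1 -1.50 (SE 0.36). That of DM versus WT gave Kap -0.996 (SE 0.52, not called), Slc34a1 -1.33 (SE 0.36) and Pck1 -0.91 (SE 0.35, not called). The part of these markers in the transporters' values was not tested.

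Among the OATs, 9 of 13 were called lower in DM versus WT and 6 of 13 in SM versus WT, with 0 higher in either, in the authors' deposited tables. Slc22a6 (OAT1) and Slc22a8 (OAT3) are the main uptake carriers for organic anions on the blood side. Slc22a6 stood at 141 CPM in DM, 124 CPM in SM and 397 CPM in WT. Its log2 fold change in the authors' deposited table was -1.50 (SE 0.22, adjusted p = 1.26e-09) in DM versus WT and -1.68 (SE 0.22, adjusted p = 5.27e-12) in SM versus WT, which are the lowest adjusted p-values of any member. Slc22a8 stood at 176 CPM in DM, 156 CPM in SM and 455 CPM in WT. It had -1.37 (SE 0.27, adjusted p = 1.64e-05) and -1.55 (SE 0.27, adjusted p = 7.81e-07) in the authors' deposited tables of DM and SM versus WT. Both genes were thus at well under the WT level in each mutant, and both lie side by side on chromosome 19 of GRCm38 (the assembly named mm10), Slc22a8 at 8591254 to 8611835 and Slc22a6 at 8618039 to 8628299, on the plus strand.

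Slc22a7 (OAT2), a carrier of nucleobases and dicarboxylates, had the lowest fold change of the members above 1 CPM in SM versus WT. It stood at 8.59 CPM in DM, 6.27 CPM in SM and 32.5 CPM in WT. The authors' deposited tables gave -1.92 (SE 0.45, adjusted p = 5.52e-04) in DM versus WT and -2.38 (SE 0.47, adjusted p = 1.34e-05) in SM versus WT. Slc22a22, the prostaglandin-specific carrier OAT-PG, stood at 7.05 CPM in DM, 8.80 CPM in SM and 26.6 CPM in WT. Its values in the authors' deposited tables were -1.92 (SE 0.53, adjusted p = 0.00466) in DM versus WT and -1.60 (SE 0.53, adjusted p = 0.0218) in SM versus WT. Slc22a12 (URAT1), which takes urate back from the tubular fluid, was the most abundant member both in CPM and per kb of exon (228 CPM per kb in WT). It had -1.08 (SE 0.31, adjusted p = 0.00685) and -1.14 (SE 0.31, adjusted p = 0.00367) in the authors' deposited tables of DM and SM versus WT.

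**Figure D2:**
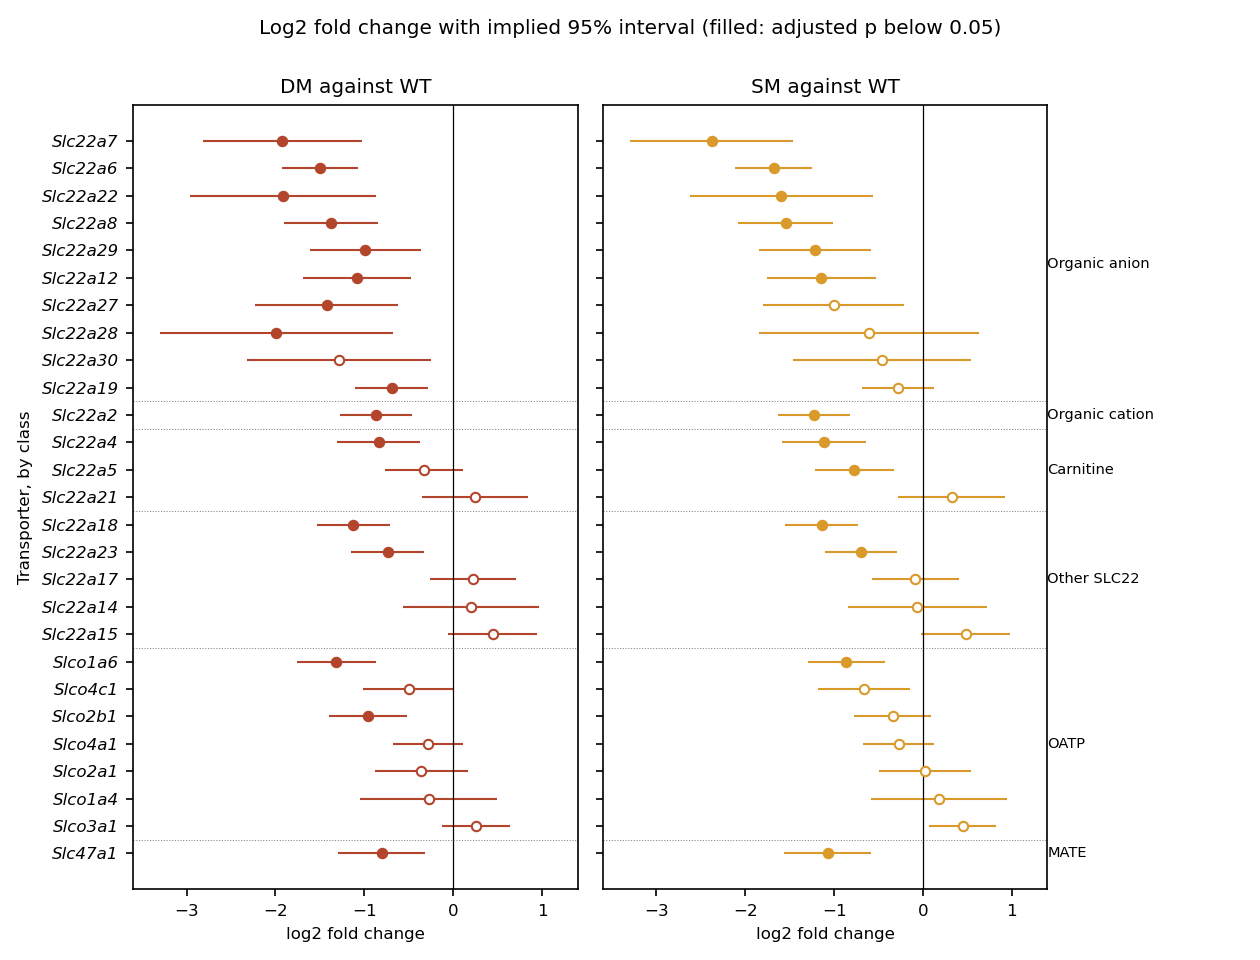
Log2 fold change of transporters with an average of at least 1 CPM in DM versus WT (left) and SM versus WT (right), grouped by class; bars are implied 95% intervals and filled points have an adjusted p below 0.05. The filled points all lie below 0, from -0.69 (Slc22a19, DM versus WT) to -2.38 (Slc22a7, SM versus WT).

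A row of 8 Slc22 genes spans 955 kb of chromosome 19, from Slc22a19 to Slc22a6, with 0 other protein-coding genes of GENCODE M21 inside it. Of these, 6 were called lower in DM versus WT and 3 in SM versus WT by the authors' deposited tables. Slc22a29 stood at 46.7 CPM in DM, 39.9 CPM in SM and 92.6 CPM in WT, with -0.99 (SE 0.32, adjusted p = 0.02) and -1.21 (SE 0.32, adjusted p = 0.00261) in the authors' deposited tables of DM and SM versus WT. Slc22a19 (OAT5), an exchanger of steroid sulphates for dicarboxylates, stood at 41.8 CPM in DM, 55.6 CPM in SM and 67.6 CPM in WT. It was called lower in DM versus WT (-0.69, SE 0.21, adjusted p = 0.0096) and had -0.28 (SE 0.21, adjusted p = 0.469) in SM versus WT, in the authors' deposited tables.

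Slc22a27 and Slc22a28, from the rodent-specific branch of the family, were called lower in DM versus WT in the authors' deposited table, at -1.42 (SE 0.41, adjusted p = 0.0068) and -1.99 (SE 0.67, adjusted p = 0.0258). For SM versus WT the authors' deposited table gave -1.002 (SE 0.40, adjusted p = 0.081) and -0.61 (SE 0.63, adjusted p = 0.674). Slc22a30 had -1.28 (SE 0.53, adjusted p = 0.0907) in DM versus WT and -0.46 (SE 0.51, adjusted p = 0.717) in SM versus WT, in the authors' deposited tables. Their levels were low, at 1.20 to 3.50 CPM in DM, 3.12 to 4.69 CPM in SM and 4.76 to 9.40 CPM in WT. Slc22a26, under 1 CPM, had positive values of 0.43 (SE 0.70) and 0.75 (SE 0.69) in the authors' deposited tables of DM and SM versus WT and was not called. Slc22a19 and Slc22a26 to Slc22a30 are close copies of each other, and no source used here says how reads that match several of them were counted, so their separate values are uncertain.

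**Figure D3:**
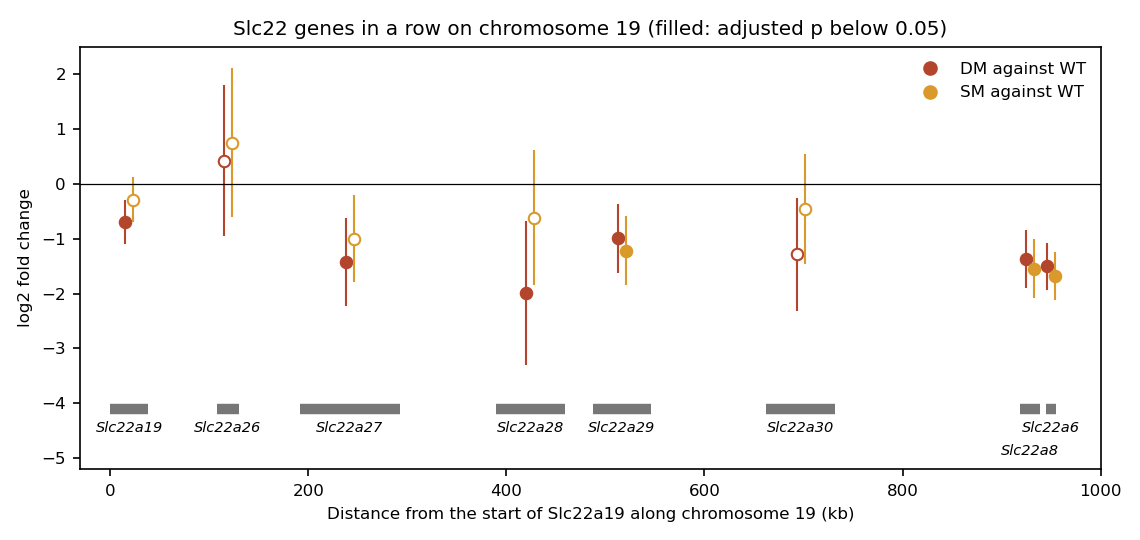
Log2 fold change in DM and SM versus WT of the 8 Slc22 genes in a row on chromosome 19, by distance in kb from the start of Slc22a19; grey bars are the genes, vertical bars implied 95% intervals, and filled points have an adjusted p below 0.05. Slc22a29, Slc22a8 and Slc22a6 are filled in both comparisons, Slc22a19, Slc22a27 and Slc22a28 in DM versus WT only.

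Hnf4a, a transcription factor known to act on proximal tubule and liver genes, was itself lower in both mutants. It had -0.78 (SE 0.25, adjusted p = 0.0206) and -0.82 (SE 0.26, adjusted p = 0.0136) in the authors' deposited tables of DM and SM versus WT. Its level was 457 CPM in DM, 446 CPM in SM and 786 CPM in WT. The promoters of the transporters were searched, on both strands, for the HNF4 core CAAAGT in the 250 bases before the RefSeq start.

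RefSeq (GRCm38.p6) gave promoters for 36 of the 43 members. CAAAGT occurred in 8 of the 36, against 14.1% of all genes and 13.0% of those with at least 1 CPM, and 3 of the 8 (Slc22a12, Slc22a22 and Slco1a6) were called lower in SM versus WT, where 12 of the 36 were. Slc22a19 and Slc22a28 also held the word and were called lower in DM versus WT only. Slc22a3, Slc22a20 and Slc22a30 held it and were called in neither. A match describes the letters only and was not tested as a binding site. The promoters of Slc22a12, Slc22a22 and Slco1a6, which were called lower in both mutants, are shown 5′ to 3′ up to the base before the start. The word, or its reverse complement ACTTTG, is in capitals.

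Slc22a12, chr19:6543071-6543320, minus strand: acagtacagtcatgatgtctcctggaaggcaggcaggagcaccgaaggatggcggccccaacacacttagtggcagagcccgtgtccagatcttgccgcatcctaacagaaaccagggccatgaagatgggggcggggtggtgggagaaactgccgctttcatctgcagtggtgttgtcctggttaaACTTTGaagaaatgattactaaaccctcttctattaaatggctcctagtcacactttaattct

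Slc22a22, chr15:57265162-57265411, minus strand: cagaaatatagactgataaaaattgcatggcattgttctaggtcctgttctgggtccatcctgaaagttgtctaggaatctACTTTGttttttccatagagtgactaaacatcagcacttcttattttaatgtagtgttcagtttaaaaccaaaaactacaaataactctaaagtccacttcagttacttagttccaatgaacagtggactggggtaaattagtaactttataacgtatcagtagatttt

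Slco1a6, chr6:142186150-142186399, minus strand: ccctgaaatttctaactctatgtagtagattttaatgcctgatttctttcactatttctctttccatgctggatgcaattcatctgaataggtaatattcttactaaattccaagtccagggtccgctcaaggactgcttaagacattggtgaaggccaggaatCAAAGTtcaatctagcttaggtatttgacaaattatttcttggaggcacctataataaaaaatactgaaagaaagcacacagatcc

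The word begins 63 bases before the start in Slc22a12 and 169 in Slc22a22, on the opposite strand in both, and 86 in Slco1a6.

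Slc22a2 (OCT2), an uptake carrier for organic cations of the blood side, was called lower in both mutants. It stood at 73.7 CPM in DM, 57.3 CPM in SM and 134 CPM in WT. It had -0.87 (SE 0.21, adjusted p = 5.63e-04) and -1.23 (SE 0.21, adjusted p = 2.31e-07) in the authors' deposited tables of DM and SM versus WT. Slc22a3 (OCT3), its relative on chromosome 17, was under 1 CPM and was not called. Slc47a1 (MATE1), which releases organic cations into urine, stood at 232 CPM in DM, 193 CPM in SM and 406 CPM in WT. The authors' deposited tables gave it -0.81 (SE 0.25, adjusted p = 0.0131) in DM versus WT and -1.07 (SE 0.25, adjusted p = 4.11e-04) in SM versus WT. OCT2 and MATE1, an uptake and an exit carrier, were both lower in each mutant, while Slc47a2, the relative of Slc47a1 on chromosome 11, was under 1 CPM and not called.

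By listed side, 5 of the 6 blood-side uptake carriers were called lower in each comparison with WT in the authors' deposited tables. Their medians were -1.13 in DM versus WT and -1.39 in SM versus WT. The member that was not called in either was Slco4c1, an OATP for digoxin and thyroid hormone, at -0.50 (SE 0.26, adjusted p = 0.232) in DM versus WT and -0.67 (SE 0.26, adjusted p = 0.0719) in SM versus WT, in the authors' deposited tables. Of the 8 members listed as urine-side carriers, 5 were called lower in each comparison, with medians of -0.82 and -0.91. Sides were assigned by list and not measured. Slc22a7, counted here as blood-side, was not checked for its side in mouse kidney. The summed level of the 6 carriers listed as blood-side was 578 CPM in DM, 497 CPM in SM and 1342 CPM in WT. The 6 urine-side carriers with at least 1 CPM summed to 775 CPM in DM, 718 CPM in SM and 1412 CPM in WT.

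Of the 4 carnitine and OCTN carriers, 1 was called lower in DM versus WT and 2 in SM versus WT. Slc22a4 (OCTN1), the ergothioneine carrier, stood at 23.0 CPM in DM, 18.97 CPM in SM and 41.1 CPM in WT. It had -0.84 (SE 0.24, adjusted p = 0.00627) and -1.11 (SE 0.24, adjusted p = 1.22e-04) in the authors' deposited tables of DM and SM versus WT. Slc22a5 (OCTN2), which recovers carnitine from urine, stood at 163 CPM in DM, 120 CPM in SM and 205 CPM in WT. The authors' deposited tables gave -0.33 (SE 0.22, adjusted p = 0.423) in DM versus WT and -0.77 (SE 0.23, adjusted p = 0.00784) in SM versus WT. DM versus SM, the test of that difference, gave 0.44 (implied 95% interval -0.02 to 0.91, unadjusted p = 0.0633, adjusted p = 1) in the authors' deposited table of the likelihood ratio test of edgeR. Slc22a21, between them on chromosome 11, had 0.24 (SE 0.30, adjusted p = 0.774) and 0.32 (SE 0.31, adjusted p = 0.629) in the authors' deposited tables of DM and SM versus WT and was not called, and Slc22a16 stood at the lowest level.

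Among the SLC22 members with other or unsettled substrates, Slc22a18 and Slc22a23 were called lower in both mutants. Slc22a18, an imprinted gene of chromosome 7 in mouse, stood at 112 CPM in DM, 111 CPM in SM and 244 CPM in WT. It had -1.13 (SE 0.21, adjusted p = 4.02e-06) and -1.14 (SE 0.21, adjusted p = 2.48e-06) in the authors' deposited tables of DM and SM versus WT. Slc22a23 had -0.74 (SE 0.21, adjusted p = 0.00517) and -0.70 (SE 0.21, adjusted p = 0.00903) in the same authors' deposited tables. Slc22a17, reported as a receptor for the injury protein lipocalin-2, stood at 45.5 CPM in DM, 36.6 CPM in SM and 39.0 CPM in WT. Its values in the authors' deposited tables were 0.22 (SE 0.25, adjusted p = 0.713) and -0.09 (SE 0.25, adjusted p = 1). The gene for lipocalin-2 itself, Lcn2, stood at 196 CPM in DM, 250 CPM in SM and 4.59 CPM in WT. Slc22a15 and Slc22a14 were not called either, by the authors' deposited tables. Slc22a15 had 0.44 (SE 0.25, adjusted p = 0.298) in DM versus WT and 0.48 (SE 0.26, adjusted p = 0.25) in SM versus WT. Slc22a14, best known from testis, had 0.20 (SE 0.39, adjusted p = 0.931) in DM versus WT and -0.06 (SE 0.40, adjusted p = 1) in SM versus WT in these authors' deposited tables. The annotated span of Slc22a14 holds other genes, Slc22a13 among them, so its reads may be shared. Slc22a12 likewise overlaps Nrxn2, Slc22a3 overlaps Plg and Slco1a5 overlaps Iapp in the annotation, and whether strand was used in counting is not stated.

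Most OATPs did not pass the test, but many of the 15 averaged under 1 CPM. Slco6b1 (annotated as a pseudogene), Slco6c1 and Slco6d1 stood at the lowest level, so they could not be called. Of 15, 3 were called lower and 1 higher in DM versus WT, and 2 lower and 2 higher in SM versus WT, in the authors' deposited tables, and whether they differ from the OATs as a class was not tested. Slco1a6, a kidney OATP of the mouse, stood at 70.8 CPM in DM, 96.7 CPM in SM and 176 CPM in WT. It had -1.31 (SE 0.23, adjusted p = 4.16e-07) and -0.86 (SE 0.22, adjusted p = 0.00164) in the authors' deposited tables of DM and SM versus WT. Slco2b1, a carrier of steroid sulphates, stood at 27.6 CPM in DM, 42.4 CPM in SM and 53.7 CPM in WT. It was called lower in DM versus WT (-0.96, SE 0.22, adjusted p = 4.18e-04) and had -0.34 (SE 0.22, adjusted p = 0.383) in SM versus WT, in the authors' deposited tables.

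Slco2a1, the prostaglandin transporter, stood at 38.0 CPM in DM, 49.6 CPM in SM and 48.7 CPM in WT. It was not called, at -0.36 (SE 0.27, adjusted p = 0.487) in DM versus WT and 0.03 (SE 0.26, adjusted p = 1) in SM versus WT, in the authors' deposited tables. Slco3a1, a widely expressed OATP, had 0.26 (SE 0.19, adjusted p = 0.495) and 0.44 (SE 0.19, adjusted p = 0.115) in the authors' deposited tables of DM and SM versus WT. Slco4a1, a thyroid hormone carrier, had -0.28 (SE 0.20, adjusted p = 0.457) and -0.27 (SE 0.20, adjusted p = 0.492) in the authors' deposited tables. Slco1a4 had -0.27 (SE 0.39, adjusted p = 0.831) and 0.18 (SE 0.39, adjusted p = 0.961) in the authors' deposited tables and was close to 1 CPM in each group.

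Of the 15 members under 1 CPM, 3 were called. Their fold changes depend on how the authors' fit treats values near the lowest level and are no bounds, and no group levels are given for them. Slco1b2, the OATP of mouse hepatocytes, was called lower, at -4.39 (SE 1.34, adjusted p = 0.0121) in DM versus WT and -5.27 (SE 1.47, adjusted p = 0.00466) in SM versus WT, in the authors' deposited tables. Slco5a1 was called higher, at 4.31 (SE 1.12, adjusted p = 0.00195) and 5.29 (SE 1.11, adjusted p = 5.31e-05) in the same authors' deposited tables. Slco1a5 was called higher in SM versus WT (4.62, SE 1.41, adjusted p = 0.0115) and had 3.81 (SE 1.45, adjusted p = 0.0615) in DM versus WT, in the authors' deposited tables. The other 12 were Slc22a3, Slc22a13, Slc22a16, Slc22a20, Slc22a26, Slco1a1, Slco1c1, Slc47a2, the pseudogene Slc22a13b-ps, and Slco6b1, Slco6c1 and Slco6d1, of which the Slco6 genes and Slc22a16 stood at the lowest level.

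Markers of hepatocytes moved with Slco1b2. Of 30 such markers, 19 were called lower and 3 higher in DM versus WT, and 17 lower and 2 higher in SM versus WT, in the authors' deposited tables. The 21 with at least 1 CPM summed to 794 CPM in DM, 846 CPM in SM and 1692 CPM in WT. Cyp2e1 and Trf, abundant members of that list, are known to be expressed in kidney too, and stood at 67.5 and 90.5 CPM in DM, 115 and 90.5 CPM in SM, and 175 and 64.1 CPM in WT. Alb (albumin), named here after its values were seen because it defines the liver, stood at 1.03 CPM in DM, 0.328 CPM in SM and 132 CPM in WT. Abcb11, the bile salt export pump of hepatocytes, had -3.18 (SE 0.99, adjusted p = 0.0144) and -3.62 (SE 1.06, adjusted p = 0.0077) in the authors' deposited tables of DM and SM versus WT. Like Slco1b2, Abcb11 averaged under 1 CPM. Slc22a7 is also known from hepatocytes. The part of these markers in the values of Slco1b2 and Slc22a7 was not tested.

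Loss of miR-21 in addition to Pkd2 gave no called difference among the transporters. The likelihood ratio test of edgeR in the authors' deposited table of DM versus SM called 0 of 43 members, against 0.0789% of all rows, and 3 of 43 (6.98%) had an unadjusted p under 0.05, against 3.75% of all rows. These were Slco2b1 at -0.62 (implied 95% interval -1.08 to -0.16, adjusted p = 0.892), Slc22a28 at -1.38 (-2.72 to -0.04, adjusted p = 1) and Slc22a13b-ps at 1.89 (0.63 to 3.16, adjusted p = 0.633), in that authors' deposited table. The implied 95% interval lay within 1 of 0 on the log2 scale for 20 of the 28 members with at least 1 CPM. For these 20 a 2-fold difference either way lay outside it. Such intervals make no allowance for a spread estimated from 10 libraries and would be wider with it, which could lower that number. For Slc22a6 the interval was -0.26 to 0.62 and for Slc22a8 -0.37 to 0.72, both from the authors' deposited table. Of the 28, 14 were above 0 and 14 below 0.

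Because DM kidneys lack miR-21, the longest GENCODE M21 3′ ends after the stop codon were searched for ATAAGCT, the word that pairs with the miR-21 seed. The mature microRNA from RefSeq (GRCm38.p6, chr11:86584120-86584141, minus strand) is shown with bases 2 to 8, its seed, in capitals, and each site with the word in capitals.

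mmu-miR-21a-5p: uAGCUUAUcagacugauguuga

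Slc22a6: aagacagagacaATAAGCTtcaattagttg

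Slco1a4: acatatcttcaaATAAGCTtgaaacttttc

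Slco4c1, nearer the stop codon: ctgggagctcttATAAGCTgaaattcaaga

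Slco4c1, farther from it: ctgtggaataggATAAGCTaatgcaatcct

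Of 41 members with such a sequence 3 held the word, Slc22a6, Slco1a4 and Slco4c1, against 7.50% of 18912 genes. These had, in the authors' deposited table of DM versus SM, log2 fold changes of 0.18 (SE 0.22) for Slc22a6, -0.45 (SE 0.42) for Slco1a4 and 0.17 (SE 0.28) for Slco4c1, none of them called. A word match is a description and was not tested as a target site.

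Some partners of these carriers were called lower too, and most did not pass the test. Of 10 ABC efflux pumps, which export drugs and conjugates by hydrolysing ATP, 5 were called lower and 0 higher in DM versus WT, and 3 lower and 1 higher in SM versus WT, in the authors' deposited tables. Abcb1b, a P-glycoprotein, stood at 16.6 CPM in DM, 8.42 CPM in SM and 29.1 CPM in WT. It had -0.81 (SE 0.30, adjusted p = 0.0471) and -1.79 (SE 0.31, adjusted p = 4.52e-07) in the authors' deposited tables of DM and SM versus WT. By the authors' deposited table Abcc6 was lower in SM versus WT (-1.10, SE 0.33, adjusted p = 0.00865). Abcc4 (MRP4), which exports urate, cyclic nucleotides and prostaglandins, was called higher in SM versus WT (0.92, SE 0.26, adjusted p = 0.00437) and had 0.48 (SE 0.26, adjusted p = 0.253) in DM versus WT, in the authors' deposited tables. It stood at 74.3 CPM in DM, 101 CPM in SM and 53.4 CPM in WT.

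Of 8 carriers that supply the dicarboxylates or monocarboxylates used in exchange, or sulphate, 4 were called lower and 0 higher in DM versus WT, and 4 lower and 1 higher in SM versus WT, in the authors' deposited tables. Slc13a3 (NaDC3), which keeps up the dicarboxylate gradient for OAT1 and OAT3, stood at 345 CPM in DM, 315 CPM in SM and 785 CPM in WT. It had -1.19 (SE 0.32, adjusted p = 0.00274) and -1.32 (SE 0.32, adjusted p = 6.69e-04) in the authors' deposited tables of DM and SM versus WT. Slc13a2 (NaDC1), the urine-side dicarboxylate carrier, had -1.46 (SE 0.21) and -1.37 (SE 0.21) in the authors' deposited tables. Slc16a9 had -0.89 (SE 0.24) and -0.87 (SE 0.24), and Slc5a12, a lactate carrier, -1.04 (SE 0.33, called) and -0.76 (SE 0.32, not called), in the authors' deposited tables. The gene called higher in SM versus WT, named after its values were seen, was the sulphate carrier Slc13a1, which the authors' deposited table gives at 0.63 (SE 0.22, adjusted p = 0.0292).

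Among 7 genes of urate handling 2 were called lower in each comparison in the authors' deposited tables. Slc17a3 was called in both, at -0.84 (SE 0.22) in DM versus WT and -1.18 (SE 0.22) in SM versus WT, in the authors' deposited tables. Slc17a1 was called in SM versus WT only (-0.66, SE 0.24), and Uox, the urate oxidase of mouse liver, in DM versus WT only (-4.73, SE 1.30), in the authors' deposited tables. Uox averaged under 1 CPM, where fold changes depend on how the authors' fit treats values near the lowest level. In SM versus WT the authors' deposited table gave Uox -3.18 (SE 1.20, adjusted p = 0.0549). Of 7 genes of carnitine synthesis and use, 2 were called lower in DM versus WT and 3 in SM versus WT, in the authors' deposited tables. Crat, carnitine acetyltransferase, had -0.96 (SE 0.22) and -0.78 (SE 0.22), and Aldh9a1, of carnitine synthesis, -0.82 (SE 0.24) and -0.80 (SE 0.24), in the authors' deposited tables of DM and SM versus WT. Cpt2 was called in SM versus WT only (-0.77, SE 0.20) in the authors' deposited table.

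Of the 4 PDZ scaffolds that hold transporters in the brush border, 1 was called lower in DM versus WT and 3 in SM versus WT, in the authors' deposited tables. Pdzk1 stood at 768 CPM in DM, 754 CPM in SM and 1723 CPM in WT, with -1.17 (SE 0.28, adjusted p = 6.31e-04) and -1.19 (SE 0.28, adjusted p = 4.11e-04) in the authors' deposited tables. Pdzd3 and Slc9a3r2 were called in SM versus WT only, at -0.81 (SE 0.25) and -0.55 (SE 0.19) in the authors' deposited table. Of 12 transcription factors, 3 were called lower and 1 higher in DM versus WT, and 4 lower and 1 higher in SM versus WT, in the authors' deposited tables. Among those called lower were Hnf4a, the xenobiotic receptor Nr1i2 (PXR), at -0.90 (SE 0.26) and -0.86 (SE 0.26), and Cebpa, called in SM versus WT only (-0.69, SE 0.24), in the authors' deposited tables. The gene called higher, named after its values were seen, was Ahr, the aryl hydrocarbon receptor, at 0.59 (SE 0.21) and 0.64 (SE 0.21) in the authors' deposited tables of DM and SM versus WT. In the authors' deposited table of DM versus SM, 0 genes of these 6 partner lists were called.

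**Figure D4:**
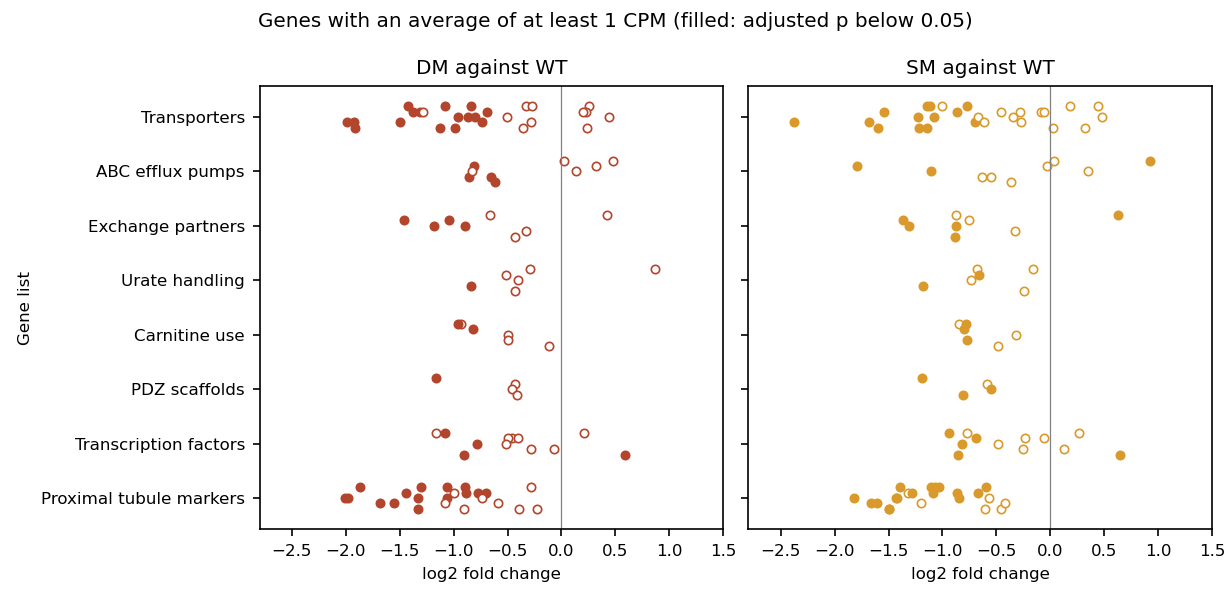
Log2 fold change of single genes averaging 1 CPM or more in DM versus WT (left) and SM versus WT (right), for the transporters, their 6 partner lists and the 23 proximal tubule markers; points are spread vertically only to separate them, and filled points have an adjusted p below 0.05. Filled points above 0 are Ahr in both panels, and Abcc4 and Slc13a1 in SM versus WT.

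Markers of macrophages, tubular injury and stroma were called higher, while some markers of podocytes and of the loop, distal tubule and collecting duct were called lower. Of 11 measured macrophage markers, 10 were called higher in DM versus WT and 11 in SM versus WT, and of 12 tubular injury markers 12 in each, in the authors' deposited tables. The macrophage markers summed to 531 CPM in DM, 530 CPM in SM and 143 CPM in WT, and the injury markers to 9354, 10007 and 2645 CPM in the same order. Stromal markers were called higher for 6 of 10 in DM versus WT and 7 of 10 in SM versus WT, and loop, distal and collecting duct markers lower for 4 and 5 of 10 and higher for 2 and 2, in the authors' deposited tables. Podocyte markers were called lower for 4 of 8 in each comparison, and endothelial markers for 3 of 12 in DM versus WT and 0 of 12 in SM versus WT, in the authors' deposited tables of edgeR's likelihood ratio test, where 2 of the 12 had an unadjusted p under 0.05 in SM versus WT. The part of these cell types in the transporters' values was not tested.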

How the data were processed

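Kidney RNA of 10 mice was made into stranded total RNA libraries, per the labels' protocols. Tools in the submitters' processing notes are edgeR 3.2.4, Subread 1.4.6 with featureCounts, TopHat2 2.0.12, Cufflinks and bcl2fastq 1.8.4, and the build is mm10; roles are not given. The authors deposited 3 tables of comparisons, and per the file headers each row holds the log2 fold change, the mean log2 CPM, the likelihood ratio (a score), a p-value and the false discovery rate. Checked on the files, deposited p-values equal chi-square tail areas of the score, the adjusted p follows from Benjamini-Hochberg adjustment of all 30431 rows, and the fold changes of the 3 tables subtract to each other, so all were read as contrasts of 1 fit.

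Group levels, SE and intervals were computed with Python 3.11.15, numpy 2.4.6, pandas 2.3.3 and scipy 1.17.1, and tested on simulated data. Nothing names the samples as pooled or paired. All 43 members matched GENCODE M21 (GRCm38) by symbol. The text gives values for the members called in any comparison or averaging at least 1 CPM. The counts cover all members and list genes, but some single genes are not reported here. Of each partner list it names the called genes, or the 4 with the largest fold change, and of the lists of proximal tubule and hepatocyte markers the most abundant. The members, lists, motifs and tests were chosen with earlier results of these data known.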

Additional observations from a re-analysis of the deposited data

How the results depend on the processing

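The counts of called transporters were recomputed under 6 alternatives. With p adjusted again over rows with a gene name, or fold changes centred on the median of rows with at least 1 CPM (-0.01 in SM versus WT), every count of members was equal to that reported. An F distribution with 7 residual degrees of freedom left 2 lower and 0 higher in DM versus WT, and 4 lower and 0 higher in SM versus WT. Adjusted over rows with at least 1 CPM, 0 members were higher in either comparison, since the members called higher lie under that level, and Slco4c1 passed as lower in SM versus WT. A threshold of 0.01 left 1 higher in SM versus WT. Asking also for a log2 fold change of at least 1 left 10 lower in DM versus WT. Under the other combinations of count and alternative, counts stayed within 1.5 times the reported ones, and DM versus SM had 0 called under each. The alternatives leave the fold changes as they are, or shift all genes alike, so they do not test the directions. No paired analysis was possible because the animals' numbers are not shared between groups and the tables carry no library values. For that reason no library could be left out either, and whether 1 animal sets a value was not tested. Members under 1 CPM are limited by depth, which is unknown.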

Other observations

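Other families of solute carriers were counted in the same way, a comparison chosen after the tables were seen. Of the 11 families with at least 10 rows averaging 1 CPM or more, Slc22 had 14 of 26 rows (53.8%) called lower in DM versus WT and 12 of 26 (46.2%) in SM versus WT, in the authors' deposited tables. Slc5, of sodium-coupled sugar and anion carriers, had 6 and 8 of 13 lower, and Slc16, of monocarboxylate carriers, 7 and 7 of 14. At the other end Slc35, of nucleotide-sugar carriers in the secretory pathway, had 1 and 1 of 27 lower, and Slc39, of zinc carriers, 1 and 1 of 14. Slc7, of amino acid exchangers, had 3 lower and 5 higher of 16 in DM versus WT, and 2 lower and 6 higher in SM versus WT, in the authors' deposited tables. Differences between families were not tested.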
